A study of Mus musculus with 16 samples.

Results

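Retinoic acid, the active form of vitamin A, is set in tissues by its synthesis and its breakdown. Retinol circulates bound to retinol-binding protein (Rbp4), is oxidised to retinal by retinol dehydrogenases such as Rdh10, and then to retinoic acid by the retinaldehyde dehydrogenases Aldh1a1 and Aldh1a2. Inside the cell, Crabp2 carries retinoic acid to the receptors Rara, Rarb and Rarg, which bind DNA as partners of the RXR receptors, while Cyp26b1 is a cytochrome P450 that oxidises and removes it. These 9 genes are described here, out of 27745 names carried by the probes of the array. They were taken by gene name from the array annotation and were chosen with the difference between the diets known, so that difference is given for them as a description without a test.

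RNA from the gastrocnemius, a calf muscle, was profiled in 16 male C57BL/6N mice, 8 fed cHF+ROSI and 8 fed cHF+F+ROSI. Both groups started at 3 months of age and received for 8 weeks a high-fat diet based on corn oil, with about 35% lipid by weight and 10 mg rosiglitazone, a thiazolidinedione that activates PPARγ, per kg diet. In cHF+F+ROSI, 15% of the dietary lipids were replaced by a concentrate of long-chain n-3 PUFA, the fatty acids of marine oils. All mice were fasted for 10 hours and then given Chow overnight, so neither group was killed on its high-fat diet, and neither is a group without rosiglitazone. On every array the RNA of 1 mouse was labelled with Cy5 and compared with a common Cy3 reference pool of muscle RNA. Values below are log2 ratios of the mouse over that pool, and differences are cHF+F+ROSI minus cHF+ROSI. The 10 fast fibre marker genes of this muscle were all above the background filter, and the mean of the list lay between 0.02 and 0.57 in single mice.

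The arrays lay 4 to a slide on 4 slides, each with 2 mice per diet. The diets always took the same positions on the slide, so position and diet cannot be told apart. Median Cy5 signal over background ranged from 2.33 to 3.64 over the arrays. The array of cHF+ROSI mouse 1 was the dimmest, and its mean correlation with the other arrays was 0.34, against 0.70 to 0.80 for the rest. Over all 19398 probes tested, limma called 3 at an adjusted p under 0.05.

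The 9 genes had 14 probes, of which 5 passed a filter that asked for a mean signal of at least 2 times the background in both channels. These probes stood for Cyp26b1, Aldh1a1, Aldh1a2, Rbp4 and Rarb. The other 9 probes had a mean Cy3 signal over background of 1.52 to 1.92. Rdh10, Crabp2, Rara and Rarg were therefore represented only by probes under the filter.

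Promoter windows of GRCm38.p6 from RefSeq, holding the 250 bases before a gene's start, were at hand for 7 of the 9 genes. Cyp26b1 and Rarb are shown because their values varied together between mice, as described below. Retinoic acid receptors bind direct repeats of a short half-site. The consensus half-site AGGTCA was searched for on both strands, along with its variant AGTTCA, the further variant GGGTCA and the combined form GGTTCA, and capitals mark 2 half-sites in the same direction spaced by 5 bases. The Cyp26b1 window is chr6:84593811-84594060 (minus strand) and the Rarb window chr14:16575477-16575726 (minus strand).

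Cyp26b1: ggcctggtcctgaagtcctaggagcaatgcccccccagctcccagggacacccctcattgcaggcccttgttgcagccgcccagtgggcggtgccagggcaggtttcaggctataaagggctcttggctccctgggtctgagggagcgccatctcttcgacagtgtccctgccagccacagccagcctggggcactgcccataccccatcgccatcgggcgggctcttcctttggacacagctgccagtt
Rarb: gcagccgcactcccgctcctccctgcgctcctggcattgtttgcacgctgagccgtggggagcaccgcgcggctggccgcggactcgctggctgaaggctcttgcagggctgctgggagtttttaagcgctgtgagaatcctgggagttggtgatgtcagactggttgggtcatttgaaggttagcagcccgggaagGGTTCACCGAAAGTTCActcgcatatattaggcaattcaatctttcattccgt

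The Rarb window held 1 such repeat, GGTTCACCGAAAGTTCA, from position -53 to -37 before the start. A repeat with this spacing was present in 0.0883% of 32851 promoter windows of the same length. No half-site was found in the Cyp26b1 window, which says only that these letters are absent from these 250 bases. Cyp26a1, another enzyme of the family that breaks down retinoic acid, had a repeat on the other strand, TGAACTTTGGGTGAACT, from position -32 to -16. No other window of the 7 members held one.

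Cyp26b1 mRNA was lower in cHF+F+ROSI, where all 8 mice lay below the lowest mouse of the other diet. The probe lies at chr6:84537616-84537675 on the minus strand of mm8, the build of the array files. Log2 ratios in cHF+ROSI had a lowest value of -0.32, a median of 0.02 and a highest value of 0.32. In cHF+F+ROSI they had a lowest value of -1.36, a median of -0.86 and a highest value of -0.40. The groups did not overlap, with a gap of 0.08 between the nearest mice. The mean was 0.05 ± 0.24 in cHF+ROSI mice and -0.83 ± 0.31 in those fed cHF+F+ROSI (SD, n = 8 each). That is a log2 difference of -0.88 (SE 0.13, 95% confidence interval -1.15 to -0.62) or 0.542 of the cHF+ROSI level. The gene was chosen with this difference known, so the interval is a description and not a test. In the values normalised by the authors the log2 difference was -1.10. Among all probes tested, 0.0773% had groups of mice that did not overlap (0.0309% with cHF+F+ROSI lower) and 0.0155% were called at an adjusted p under 0.05. In whole muscle, fewer cells of a type and less RNA per cell cannot be told apart.

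**Figure D1:**
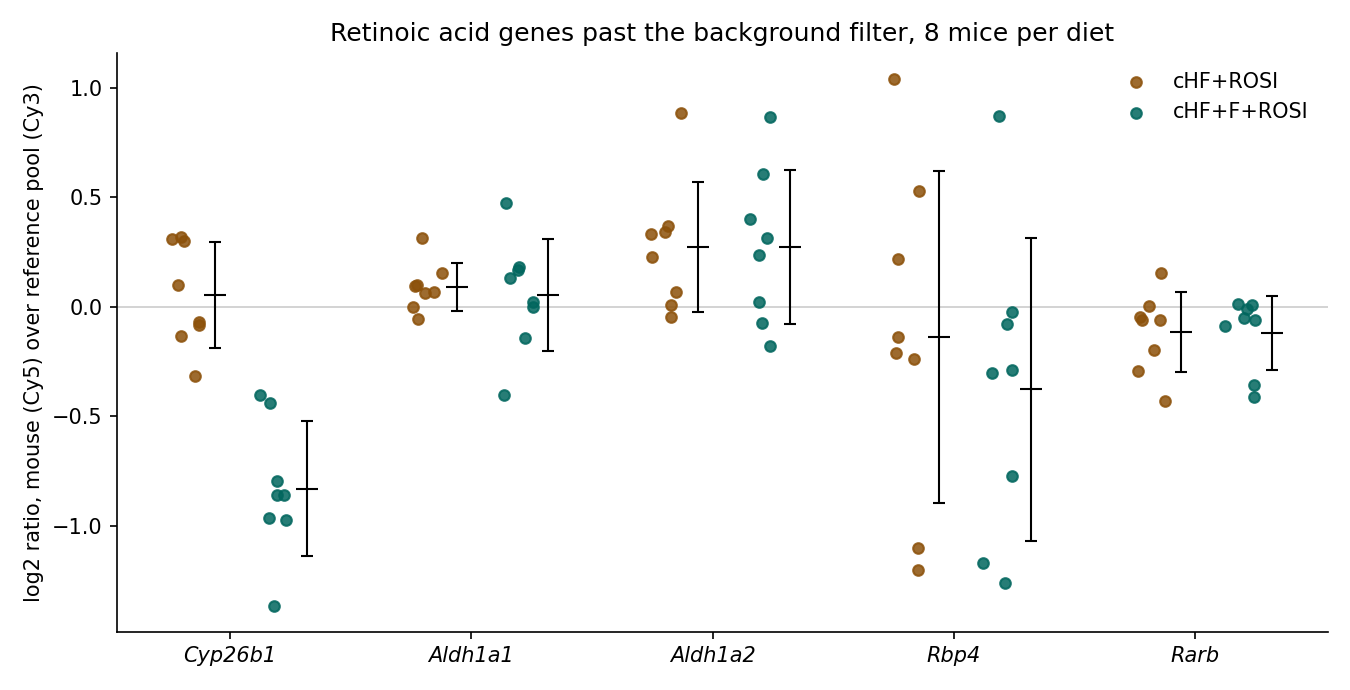
Log2 ratio over the reference pool for the 5 retinoic acid genes past the filter, by diet. Points are mice and bars show the mean and SD of 8 mice. Cyp26b1 is the gene whose mice separate by diet, from -1.36 to -0.40 in cHF+F+ROSI and from -0.32 to 0.32 in cHF+ROSI.

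Before normalisation, the signal of the mouse channel was split in the same way. It comes from the same spot on the same arrays as the log2 ratios, so it is no separate evidence. Cy5 signal over background for Cyp26b1 was 24.0 to 54.5 in the cHF+ROSI mice and 14.1 to 22.4 in the cHF+F+ROSI mice, while the Cy3 signal of the pool stayed between 7.87 and 11.3 on all arrays. Within slides, the Cyp26b1 difference was -0.74 on slide 1, -0.73 on slide 2, -0.95 on slide 3 and -1.11 on slide 4. That both cHF+F+ROSI mice were below both cHF+ROSI mice on each of the 4 slides follows from groups that do not overlap. Cyp26b1 also varied among mice of 1 diet, with a within-group SD of 0.28, larger than that of 90.0% of probes. Such shares, here and below, are over probes of any brightness and were not matched for signal.

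**Figure D2:**
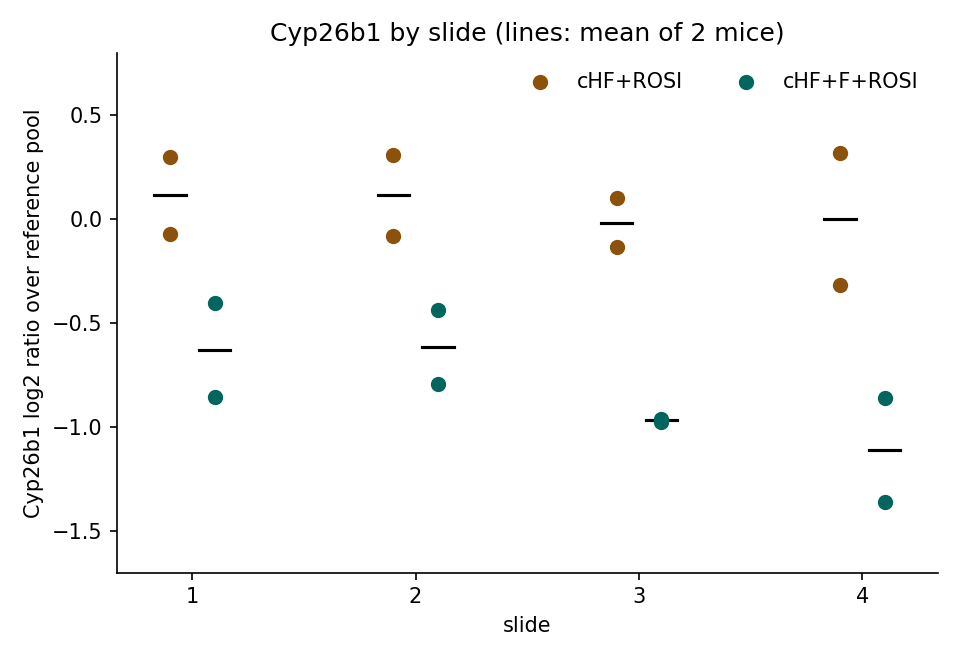
Cyp26b1 log2 ratio over the reference pool for each mouse, by slide. Points are mice, lines are the mean of 2 mice of a diet on that slide. As the groups do not overlap, the cHF+F+ROSI mice lie below the cHF+ROSI mice on all 4 slides. The means of the diets are 0.73 to 1.11 apart.

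Endothelial cells are among the cell types known to express Cyp26b1, and most of their marker genes lay in the same direction, by less. Of 10 endothelial markers, 8 were lower in cHF+F+ROSI, 5 of them at an unadjusted p under 0.05, a level passed in the lower direction by 3.95% of all probes, and 0 at an adjusted p under 0.05. The median log2 difference of the list was -0.15, against -0.00117 for all probes. Cldn5, a tight junction protein, differed by -0.45, Emcn by -0.24 and Kdr, a VEGF receptor, by -0.27, while Vwf differed by 0.20. The mean of the list ranged from -0.33 to -0.02 in cHF+ROSI and from -0.45 to -0.16 in cHF+F+ROSI, and these ranges overlap. Across mice, deviations of Cyp26b1 from its diet mean had r = 0.43 with those of the list (rho = 0.42, permutation p = 0.10 and 0.12, adjusted p = 0.75 over 50 relations, 0.25 leaving out the 2 mice most distant from the median). Satellite cell markers had r = -0.44 with Cyp26b1. Adipocyte markers had r = 0.28 (0.78 within cHF+ROSI, 0.04 within cHF+F+ROSI, 0.76 leaving out the 2 mice most distant from the median). The remaining lists lay between these 2, and 0 of the 50 relations passed an adjusted permutation p of 0.05.

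Some other marker lists also lay lower, where 9837 of all 19398 probes were lower. Of 10 fibroblast markers, 8 were lower, 2 of them at an unadjusted p under 0.05 (Lum by -0.23 and Pi16 by -0.65), with a median of -0.07. Slow fibre markers were lower in 7 of 8 genes, none at that level, with a median of -0.40 and a list mean of -1.22 to 0.68 in cHF+ROSI and -2.09 to 0.29 in cHF+F+ROSI. The -2.09 was that of cHF+F+ROSI mouse 2, which stood apart in these genes, and without this mouse the Cyp26b1 difference was -0.94. Schwann cell and tendon markers were lower in 7 of 8 genes, none at that level, with a median of -0.12. Of 6 smooth muscle markers 1 was lower at that level, Rgs5 by -0.44, and the list's median was 0.01. Adipocyte markers were higher in 5 of 7 genes (median 0.32) and red blood cell markers in 3 of 3 (median 0.19), none at that level. By limma, 0 genes of any of these lists were called at an adjusted p under 0.05. The part of any of these cells or fibres in the Cyp26b1 difference was not tested.

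The synthesising enzymes showed no such split. Aldh1a1, whose probe lies at chr19:20710371-20710430 of mm8, had log2 ratios of -0.05 to 0.31 with a median of 0.08 in cHF+ROSI. In cHF+F+ROSI they ranged from -0.40 to 0.47 with a median of 0.08. The groups overlapped, and the log2 difference was -0.04 (SE 0.09, 95% confidence interval -0.23 to 0.16).

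Aldh1a2, the main retinaldehyde dehydrogenase of the embryo (probe at chr9:71094684-71094743), had a log2 difference of 0.00 (SE 0.15, 95% confidence interval -0.31 to 0.31). Its values ran from -0.05 to 0.89 in cHF+ROSI, with a median of 0.28, and from -0.18 to 0.87 in cHF+F+ROSI, with a median of 0.27. The highest values were those of cHF+ROSI mouse 4 and cHF+F+ROSI mouse 2, and the groups overlapped. Its within-group SD of 0.32 exceeded that of 93.8% of probes. Among 50 relations of members with marker lists, tried after the data were seen, that of Aldh1a2 with macrophage markers was the closest (r = 0.70, rho = 0.54, permutation p = 0.0035 and 0.036, adjusted p = 0.18 and 0.45). Leaving out the 2 mice most distant from the median gave 0.45, and 0 of the 50 relations passed an adjusted p of 0.05.

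Rdh10, the retinol dehydrogenase that feeds this pathway, was measured by 2 probes under the filter with log2 differences of 0.00 and 0.02 (SE 0.10 and 0.05). Both were well above background in Cy5 in all mice. They fell under the filter through the reference channel, where the mean signal over background was 1.76 and 1.92. In that channel the probes were well above background on 7 and 16 of the 16 arrays.

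Among the carriers, Rbp4 had the widest spread between mice. Its probe lies at chr19:38181783-38181842 on the minus strand of mm8. Log2 ratios ran from -1.20 to 1.04 with a median of -0.17 in cHF+ROSI, and from -1.26 to 0.87 with a median of -0.29 in cHF+F+ROSI. The groups covered almost the same range, and the log2 difference was -0.24 (SE 0.33, 95% confidence interval -0.92 to 0.45). Within slides it was -0.56, 0.96, -0.54 and -0.81, so the direction differed between slides. The within-group SD of Rbp4, 0.73, was larger than that of 99.5% of probes.

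The genes whose deviations from the diet means were most like those of Rbp4 over the 16 mice were Serpina3m (r = 0.98), Apoc1 (r = 0.98) and Gsta3 (r = 0.96), each compared among 13512 genes. Apoc1 is an apolipoprotein and Serpina3m a secreted serine protease inhibitor, both made in liver. A list of 10 hepatocyte markers, written after these genes were seen, had 8 genes above the filter, and each had r between 0.86 and 0.92 with Rbp4. Alb, which encodes albumin, ranged from -2.93 to 1.63 and Apoa2 from -1.97 to 1.19. The mean of the 8 genes ranged from -1.94 to 0.96 in cHF+ROSI and from -1.23 to 1.13 in cHF+F+ROSI. Its deviations had r = 0.91 and rho = 0.89 with those of Rbp4 (0.97 within cHF+ROSI, 0.82 within cHF+F+ROSI, 0.86 leaving out the 2 mice most distant from the median), given as a description. The same mean had r of 0.03 to 0.30 with the other 4 members above the filter over both diets. Within single diets r was less even. It was 0.67 for Aldh1a1 and 0.58 for Rarb within cHF+ROSI, but 0.08 and -0.09 within cHF+F+ROSI. For Aldh1a2 it was -0.46 within cHF+ROSI and 0.55 within cHF+F+ROSI, and for Cyp26b1 0.27 and 0.31. For the list of adipocytes, which also make Rbp4, r was 0.15 (rho = 0.10, permutation p = 0.58 and 0.73, adjusted p = 0.89 over the 50 relations). The part of RNA from other tissue in the Rbp4 values was not tested.

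**Figure D3:**
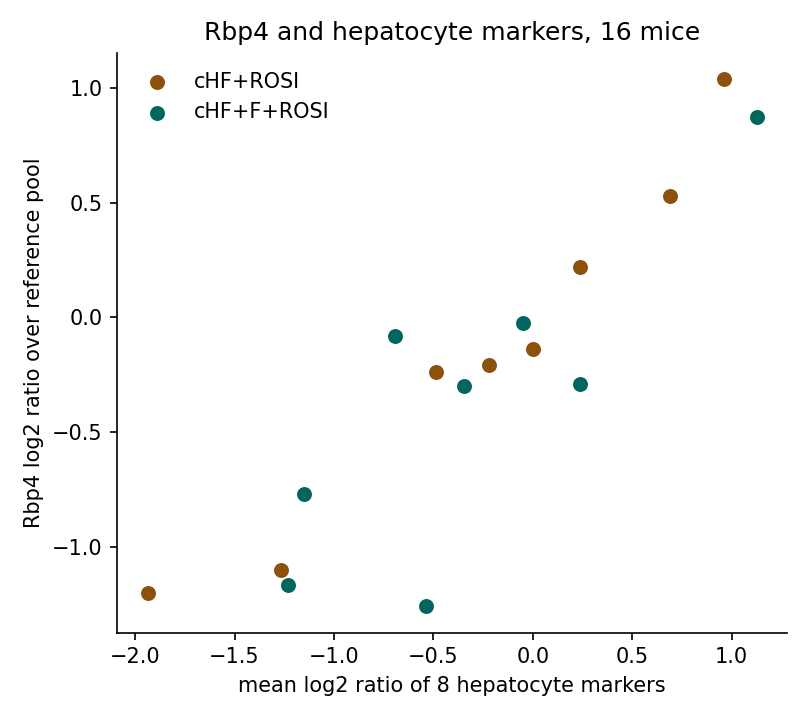
Rbp4 log2 ratio against the mean log2 ratio of 8 hepatocyte markers, both over the reference pool. Each point is a mouse. Rbp4 goes from -1.26 to 1.04 along with the markers in both diets, with r = 0.91 for deviations from the diet means.

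Crabp2, the carrier that hands retinoic acid to the receptors, was not well above background in Cy5 on any array, with a mean signal over background of 1.54. Its log2 difference of 0.01 (SE 0.06) therefore concerned a signal near background.

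Of the receptors, only Rarb had a probe above the filter. This probe (chr14:15224264-15224323, minus strand of mm8) is spotted 10 times on each array. That gives the error between spots, but not that of labelling or hybridisation. The SD between its spots had a median of 0.05 over the arrays, against an SD of 0.18 between mice. Rarb ranged from -0.43 to 0.15 with a median of -0.06 in cHF+ROSI, and from -0.41 to 0.01 with a median of -0.06 in cHF+F+ROSI. The groups overlapped almost fully. The log2 difference was 0.00 (SE 0.08, 95% confidence interval -0.18 to 0.17), and that of single spots lay between -0.02 and 0.05.

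A second Rarb probe, under the filter, covers positions between 15341785 and 15368493 and differed by 0.10 (SE 0.05). Rara was well above background in Cy5 in 3 of 8 mice of each diet and differed by -0.03 (SE 0.05). The 4 Rarg probes differed by -0.05 to 0.05, and 2 of them were not well above background in Cy5 in any mouse. With signals this near background, small differences do not show equal expression.

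**Figure D4:**
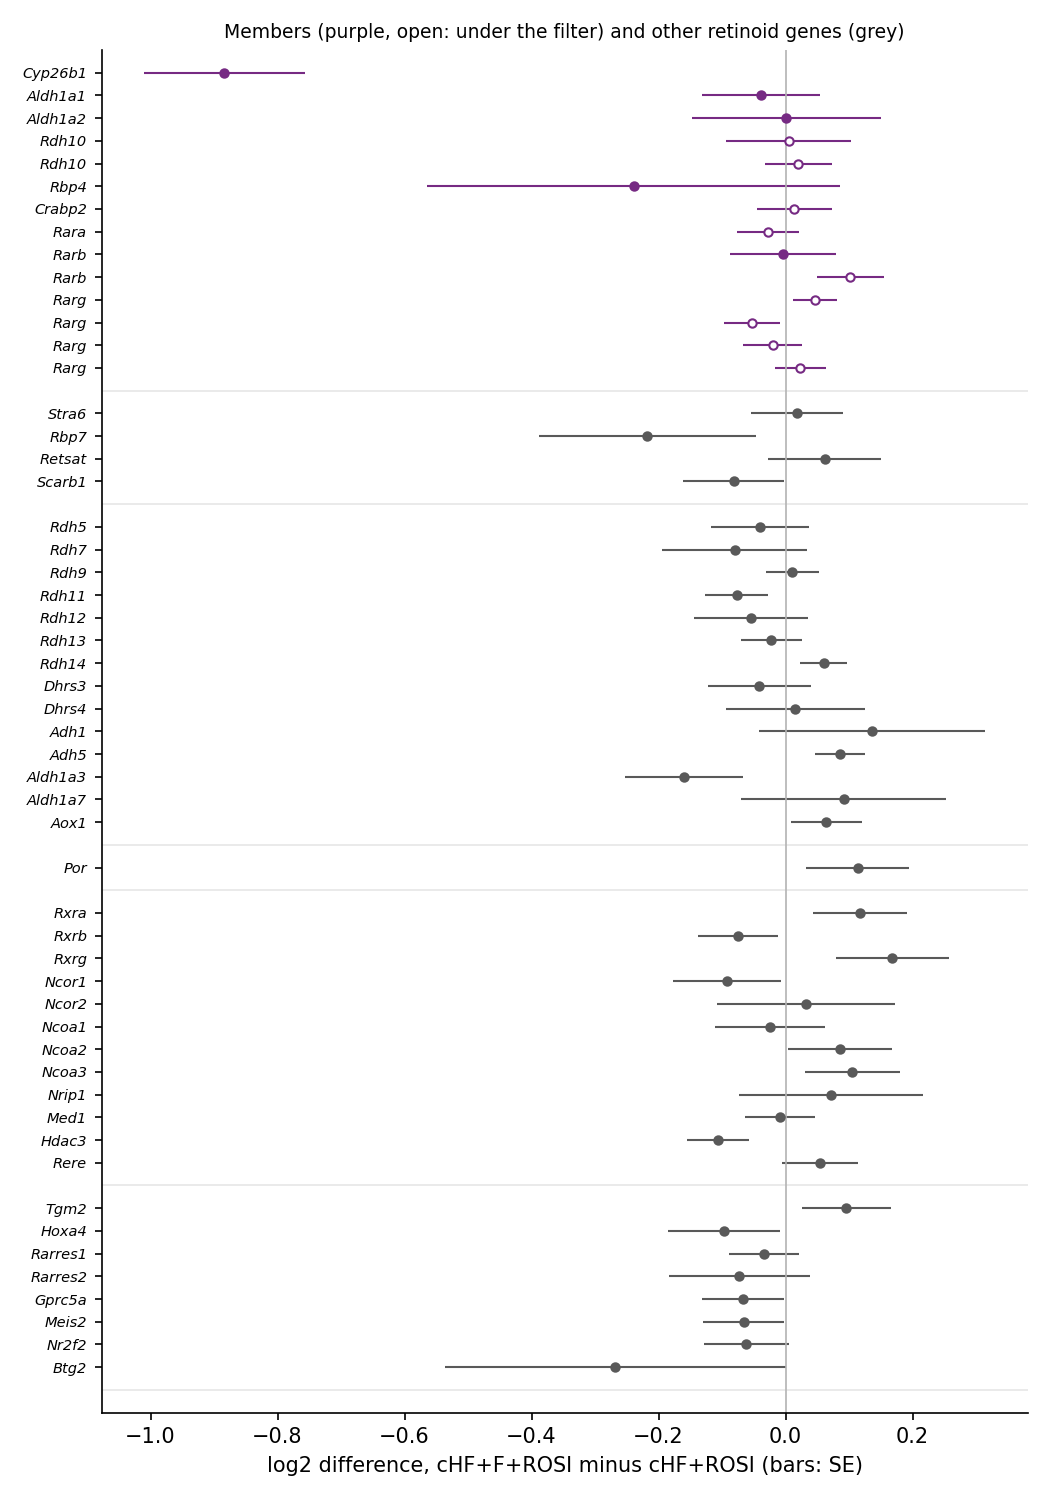
Log2 difference, cHF+F+ROSI minus cHF+ROSI, with its SE, for the 14 probes of the 9 members (purple, open symbols under the filter) and for other retinoid genes (grey) grouped by role. Cyp26b1 lies at -0.88, and the other genes lie between -0.27 and 0.17.

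Within diets, Cyp26b1 varied together with Rarb. Group means were removed and 4 relations of Cyp26b1 with the other members above the filter were computed over the 16 mice. For Rarb, r was 0.71 (permutation p = 0.0027, adjusted p = 0.011) and rho 0.74 (permutation p = 0.0024, adjusted p = 0.0095). It was 0.81 among cHF+ROSI mice and 0.65 within cHF+F+ROSI, and was 0.61 with the 2 mice most distant from the median left out. With slide means removed as well, r was 0.64 (adjusted permutation p = 0.016). There, mice were permuted within diet and slide, with 2 mice of a diet on each slide. Few arrangements are possible, so this p is coarser than the others. The relation rested in part on slide 4 and on cHF+F+ROSI mouse 8, which was lowest for Cyp26b1 and low for Rarb: without that mouse r was 0.62 (adjusted p = 0.075), and without slide 4 it was 0.55 (adjusted p = 0.073). Without the dim array of cHF+ROSI mouse 1, r was 0.69 (adjusted p = 0.025).

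**Figure D5:**
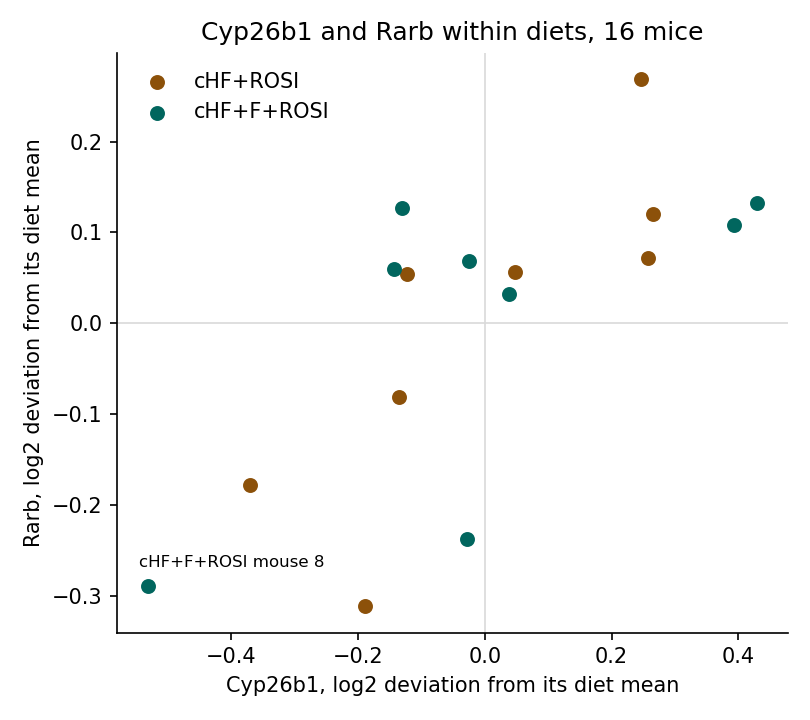
Deviation of Cyp26b1 and of Rarb from the mean of their diet, in log2 units. Each point is a mouse. Mice with lower Cyp26b1 had lower Rarb on the whole (r = 0.71), and cHF+F+ROSI mouse 8 lies at the low end of both.

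Single spots of the Rarb probe, 10 per array, had r of 0.51 to 0.71 with Cyp26b1. They share the RNA and hybridisation of each array, so they are no separate evidence for the relation. The second Rarb probe had r = 0.23 with Cyp26b1 and 0.50 with the first Rarb probe. Of 13512 genes compared, 26 had a higher r with Cyp26b1 than Rarb did, or 0.192%. The closest were Rabl4, now named Ift27, at 0.82, the transcripts AI790298 and AK054424 at 0.78 each, Ets2, a transcription factor, at 0.78 and Prcp, a carboxypeptidase, at 0.76. The genes most like Rarb were Wdr60 (r = 0.94), Tada2l, now Tada2a (r = 0.92), and Cirbp, a cold-inducible RNA-binding protein (r = 0.88).

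The other members were less close to Cyp26b1. Aldh1a1 had r = 0.42 (rho = 0.28, permutation p = 0.15 and 0.33, adjusted p = 0.30 and 0.35), and this value hung on single mice. Without cHF+F+ROSI mouse 2 it was 0.63 (adjusted permutation p = 0.048), without mouse 5 of that diet 0.24 (0.57) and without mouse 8 of that diet 0.087 (0.77). It was 0.0094 without slide 4 and 0.030 with no background subtraction. Rbp4 had r = 0.25 (rho = 0.29, permutation p = 0.37 and 0.29, adjusted p = 0.49 and 0.35). Aldh1a2 had r = -0.12 (rho = -0.26, permutation p = 0.67 and 0.35, adjusted p = 0.67 and 0.35). The genes most like Aldh1a1 were Uaca, Ankrd23 and Map1lc3b, with r of 0.78 to 0.80. For Aldh1a2 they were Crip1, Fip1l1 and a probe named Tpte2 whose accession now belongs to Crlf2, with r of 0.83 to 0.84.

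The rest of the pathway was read from a list of 63 genes ordered by role, of which 40 had a probe above the filter. By limma, 0 of the 40 were called at an adjusted p under 0.05, where 0.0155% of all probes were. Read by the brightest probe of each gene, there were 2 at an unadjusted p under 0.05, or 1 in each direction. Of all probes, 7.44% passed that level (3.49% higher and 3.95% lower). Nrip1, a coregulator, had 1 of 3 probes at that level, but its brightest probe was not (log2 difference 0.07, SE 0.14). Adh5, the class III alcohol dehydrogenase, was higher by 0.09 (SE 0.04, limma adjusted p = 0.66), and Hdac3, a histone deacetylase of the corepressor complex, was lower with a log2 difference of -0.11 (SE 0.05, limma adjusted p = 0.66). The median log2 difference of the 40 genes was -0.02, beside -0.00117 for all probes.

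By role, 5 of 12 carrier and storage genes, 14 of 20 oxidoreductases, 12 of 12 RXR partners and coregulators and 8 of 16 response genes were tested. The receptor partners Rxra, Rxrb and Rxrg differed by 0.12, -0.07 and 0.17 (SE 0.07, 0.06 and 0.09). Dhrs3, which turns retinal back into retinol, differed by -0.04 (SE 0.08). Stra6, the membrane receptor for Rbp4, differed by 0.02 (SE 0.07) and Rbp7 by -0.22 (SE 0.17). Tgm2, a transglutaminase known as a response gene of retinoic acid, differed by 0.10 (SE 0.07). Read by the brightest probe of each gene, it was the 1 higher gene of the 8 response genes tested. Of its 3 probes, 2 were higher. The other 7 were lower, and the list's median log2 difference was -0.07. Of all 19398 probes, 9837 were lower. Cyp26a1 was under the filter and Cyp26c1 had no probe found, so of the 3 Cyp26 enzymes Cyp26b1 was the one with a value. Por, the reductase that passes electrons to P450 enzymes, differed by 0.11 (SE 0.08).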

How the data were processed

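Gastrocnemius RNA of single mice (Cy5) and a reference pool (Cy3) were hybridised on Agilent 4x44K arrays. The deposited scanner intensity values came from Feature Extraction, version 10.5.1.1 in the file headers and 10.5.5.1 in the submitters' processing notes. The authors also deposited a table of log2 Cy5 values normalized against Cy3 in GeneMaths XT, used here as an alternative.

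Median intensities were background-corrected by normexp (offset 50), spots with a mean signal over background under 2 in either channel were removed, outlier spots were set missing (14 of 160 Rarb spot values), ratios were loess-normalised within arrays and spots of a probe averaged. Spots besides controls numbered 43379 and those kept 20703. The diets were compared by limma 3.58.1 (R 4.3.3) with Benjamini-Hochberg adjustment, tested on simulated data. Relations used deviations from diet means and 100000 two-sided permutations of mice within diets, or within diet and slide where slide means were removed. RNA was isolated from individual mice, so p-values measure the spread between these mice. The mice shared cages, and cage was not modelled, so mice of a diet may not all be independent. The number of arrays limits the precision. The members and gene lists were chosen with earlier results of these data known. Genes were named by rule: the members, retinoid genes listed by role, those at an unadjusted p under 0.05, and the 3 genes (5 for Cyp26b1) most like each member; 1 listed gene is counted but not reported here. Coordinates are those of the files (mm8). Alternatives were other background corrections, normalisations and filters, the authors' table, blocks, array weights, the methods' t-test and each array left out.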

Additional observations from a re-analysis of the deposited data

Results flagged for a closer look

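Aldh1a2 in cHF+ROSI held 1 mouse apart from the rest. Mouse 4 had a log2 ratio of 0.89 and the next mouse 0.37, a gap of 0.556 of the group's whole range, above Dixon's 95% critical value for a group of this size. Of 10 groups of values examined for the members above the filter this was the one past that limit, and chance marks about 1 in 20.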

How the results depend on the processing

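The Cyp26b1 log2 difference stayed negative in all alternatives, from -1.20 with the processed signals of Feature Extraction to -0.81 without cHF+F+ROSI replicate 8, and from -0.94 to -0.81 over the 16 arrays left out in turn. With the replicate block or slide as a block it was -0.88, as the balanced design fixes. The limma adjusted p of Cyp26b1, no independent evidence here, was 0.013, and became 0.13 with the replicate block and 0.37 with scale normalization; over the other limma fits it was 0.0013 to 0.046. Correlations across probes between mice of 1 replicate number were mixed (-0.34 to 0.73), so the numbers were not taken to pair the mice. Under the replicate block 0 probes of all were called, against 3. Counts of probes called were 14 with no background subtraction, 19 with processed signals, 1 with median centring, 0 with scale normalization, 8 with the Cy5 channel alone, 10 with the authors' table, 14 with array weights and 2 with the methods' t-test after Benjamini-Hochberg, and the cause was not tested. The largest of the other members' differences, that of Rbp4, was 0.24, and went from 0.07 to 0.42 over the arrays left out.

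None of the other retinoid genes was called under any alternative, by limma or the methods' t-test (0 of 40; 0 to 3 at an unadjusted p under 0.05). Of the relations of Cyp26b1 with members, 1 passed the adjusted p, and 0 to 2 did with single arrays left out. It was 2 with no filter, where Rara (r = 0.71, adjusted permutation p = 0.0060 over 8 relations) joined Rarb. It was 2, Rarb and Aldh1a1 (r = 0.71), without both cHF+ROSI mouse 1 and cHF+F+ROSI mouse 2, and 0 without slide 4, alternatives chosen after seeing the data. Signal over background limits Rdh10, Crabp2, Rara and Rarg.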
